A study of Mus musculus with 6 samples.

Results

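The comparison of antibiotics with control in young-adult mice was made within 1 well of a CITE-seq experiment, an assay that reads the RNA and a panel of antibody tags from the same single cells. Its members were the cells that the deposited metadata place in the young control and young antibiotic groups, 6526 of 13052 cells in all. Cells with hashtags 1, 2 and 3 formed the 3 control pools, cells with hashtags 4, 5 and 6 formed the 3 antibiotic pools, and each of the 10 deposited cell types was compared separately. All mice were female C57BL/6 animals aged 12 weeks. Control mice received vehicle and kept their gut microbiota, and antibiotic mice (ABX) received an antibiotic treatment, whose drugs the labels do not name, that depleted it. The brains of 6 mice a side were combined into 3 pools a side, so each pool holds cells of more than 1 mouse and the individual animals cannot be separated. The brains were perfused with PBS, digested with papain and enriched for immune cells on a Percoll gradient. A second well held 6 pools of mice aged 72 weeks, in which the same hashtags marked the same arms.

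Microglia are the resident macrophages of the brain tissue. They depend on TGF-beta and colony-stimulating factor signals for their identity, and work in germ-free and antibiotic-treated mice has linked their state to the gut microbiota. The brain borders hold a separate population, the border-associated macrophages (BAM), and a brain that has been perfused still gives small numbers of monocytes, neutrophils, lymphocytes and innate lymphoid cells (ILCs), which are lymphocytes without a rearranged antigen receptor.

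The hashtags decide to which pool, and so to which arm, a cell belongs. Each is an antibody that carries a DNA barcode of 15 bases, shown here because the whole comparison rests on telling these barcodes apart. No base is capitalised, since the whole barcode is the signal.

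Hashtag 1 (control): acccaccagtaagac
Hashtag 2 (control): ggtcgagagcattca
Hashtag 3 (control): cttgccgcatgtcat
Hashtag 4 (antibiotic): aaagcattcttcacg
Hashtag 5 (antibiotic): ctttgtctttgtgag
Hashtag 6 (antibiotic): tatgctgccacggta

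Each pair of these 6 barcodes differs at 8 to 14 of the 15 positions. Since both wells used hashtags 1 to 3 for control and 4 to 6 for antibiotic mice, an effect of the hashtag and one of the arm cannot be told apart.

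Each arm held exactly 3263 cells, a choice not described in the sources used here, so only shares within a pool are compared. The metadata call every cell a singlet. The pools held 760 to 1590 cells, with median raw totals of 6512 to 7164 UMIs and of 1186 to 1420 antibody tags per cell. Antibiotic pool 3, the largest, stood apart in its hashtag signal, with a median difference between the highest and second hashtag of 1.63 against 2.28 to 2.65 in the other 5 pools. The wells shared 59 cell barcodes. The labels Microglia, BAM, BCells, Ly6CHigh and Ly6C+Ly6G+ went with their defining genes, for example a mean value per cell of 11.6 for P2ry12 in Microglia, 9.39 for Pf4 in BAM and 13.6 for Cd79a in BCells. Ly6CLow cells carried both the monocyte gene Ace (0.869) and the dendritic cell gene Cd209a (4.68). The cells labelled ILCs carried the natural killer cell genes Gzma (24.1) and Ncr1 (3.69, against 3.62 in the cells labelled NKCells). They also carried Gata3 (0.794) and Il1rl1 (0.226), genes of type 2 innate lymphoid cells, but neither was particular to them. Gata3 was at 0.986 in CD4+ cells and Il1rl1 at 0.230 in Ly6CLow cells. The T cell gene Cd3d was at 0.658 in the cells labelled ILCs, against 4.92 in CD4+ cells. The authors' cluster 2, which held 55 of the 72 young CD4+ cells, held 22 of the 155 cells labelled ILCs. These cells are therefore called the ILC-labelled cells here.

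The mix of immune cells in the young brain was compared between the arms first. Microglia were 77.5% ± 5.24 of control and 78.2% ± 5.89 of antibiotic cells (mean ± SD, n = 3 pools). No cell type passed the test, edgeR's quasi-likelihood test with Benjamini-Hochberg adjustment, which called 0 of 10 types (0%) with 0 at an unadjusted p under 0.05 and adjusted p of 0.736 to 0.928. DESeq2 and limma also called 0.

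The ILC-labelled cells were the only one of the 10 types whose shares did not overlap between the arms. Their share was 2.48%, 3.29% and 2.64% in control pools 1, 2 and 3, and 2.31%, 2.01% and 1.89% in antibiotic pools 1, 2 and 3. Every control pool lay above every antibiotic pool, but the log2 change of -0.43 (SE 0.71) had an edgeR adjusted p of 0.736, and the two-sided exact permutation p of 0.1 is the smallest that 3 pools against 3 allow. Adjusted over the 10 types, that permutation p was 0.833. The authors' cluster 9 held 3, 1 and 6 of these cells in the control pools and 0, 0 and 0 in the antibiotic pools. The shares were not compared without them. B cells made up 2.48%, 3.03% and 1.98% of the control pools and 3.34%, 1.45% and 7.92% of the antibiotic pools. Antibiotic pool 3 alone was high, and the log2 change of 0.79 (SE 0.61) was -0.06 without it. Ly6C+Ly6G+ cells, which carry the neutrophil genes S100a8 and Ly6g, were 8.68%, 1.97% and 1.90% of the control pools and 1.29%, 0.894% and 4.59% of the antibiotic pools. Control pool 1 alone was high on that side, and the log2 change of -0.86 (SE 0.82) was 0.26 without it, and -1.95 without antibiotic pool 3.

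**Figure D1:**
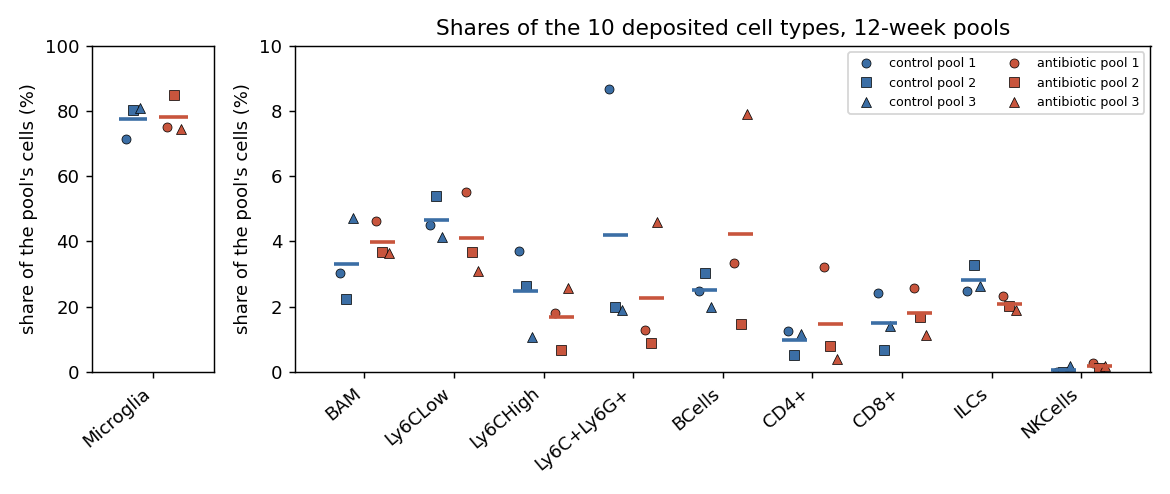
Share of each pool's cells, in percent, for the 10 deposited cell types (microglia on their own axis). Points are pools, bars are means of 3 pools; the arms overlap in microglia, and the high B cell (7.92%) and Ly6C+Ly6G+ (8.68%) values are single pools.

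Gene expression was then compared in microglia, with 584 to 1186 cells per pool. Values are corrected UMI values averaged over the cells of a pool, and changes are antibiotic minus control on the scale of log2(mean value + 0.05). limma tested 8759 genes and called 12 (0.137%) at a Benjamini-Hochberg adjusted p under 0.05, 5 higher (0.0571%) and 7 lower (0.0799%). The lower genes included the interferon-inducible Ifi27l2a, the polyamine enzyme Odc1 and the adhesion adaptor Apbb1ip. The higher genes included the RNA-binding proteins Zc3h6 and Rbm26. The 12 log2 changes lay between -0.63 and 0.71, and 928 genes had an unadjusted p under 0.05.

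Ifi27l2a (chr12:103433873-103443680 in GRCm38.p6, as all positions here) belongs to a family induced by type I interferon. Its mean value was 0.305, 0.336 and 0.353 in the control pools and 0.185, 0.176 and 0.229 in the antibiotic pools. All antibiotic pools were lower, with a log2 change of -0.63 (SE 0.12, limma adjusted p = 0.0467). With microglia matched on raw UMIs its limma adjusted p was 0.0609, with the mean of log values over cells it was 0.161, and over all 18 settings tried for this gene it ran from 8.723e-06 to 0.315. Odc1 (chr12:17544808-17551502), ornithine decarboxylase, is the rate-limiting enzyme of polyamine synthesis. It had 0.904, 1.08 and 0.974 in the control pools and 0.601, 0.702 and 0.680 in the antibiotic pools. The arms did not overlap, and Odc1 fell by 0.54 on the log2 scale (SE 0.09, limma adjusted p = 0.0243).

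Apbb1ip (chr2:22755971-22875653) encodes an adaptor that links the small GTPase Rap to integrins. Its values were 3.04, 3.15 and 3.19 in the control pools and 2.58, 2.49 and 2.55 in the antibiotic pools. The antibiotic pools lay close together below the controls, with a log2 change of -0.30 (SE 0.05, limma adjusted p = 0.0291). Rin2 (chr2:145771727-145887616), an exchange factor for endosomal Rab GTPases, had 1.04, 0.967 and 0.999 in the control pools against 0.726, 0.784 and 0.738 in the antibiotic pools. It fell in each antibiotic pool, by 0.39 on the log2 scale (SE 0.07, limma adjusted p = 0.0243). Slc16a6 (chr11:109450855-109473598), a transporter of the monocarboxylate family, had 1.88, 1.93 and 2.02 against 1.31, 1.595 and 1.51, a log2 change of -0.39 (SE 0.07, limma adjusted p = 0.0290). Again no antibiotic pool reached a control pool.

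Banp (chr8:121947972-122029260), a nuclear protein that binds promoter DNA, had 0.196, 0.193 and 0.201 in the control pools and 0.0839, 0.114 and 0.142 in the antibiotic pools. The control pools were nearly equal and the antibiotic pools were spread below them, with a log2 change of -0.61 (SE 0.12, limma adjusted p = 0.0467). Coq8b (chr7:27228676-27257949), which acts in coenzyme Q synthesis, had 0.172, 0.175 and 0.159 against 0.0993, 0.114 and 0.120, a log2 change of -0.44 (SE 0.09, limma adjusted p = 0.0467).

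Of the genes that rose, Zc3h6 (chr2:128967402-129018563), a zinc finger protein of the CCCH type, had 0.0791, 0.0951 and 0.0776 in the control pools and 0.197, 0.166 and 0.148 in the antibiotic pools. Its log2 change of 0.71 (SE 0.12, limma adjusted p = 0.0243) was the largest increase among the called genes. Slco4a1 (chr2:180456226-180474853), an organic anion transporter, had 0.0910, 0.115 and 0.102 against 0.163, 0.205 and 0.197, a log2 change of 0.64 (SE 0.11, limma adjusted p = 0.0291). Ppp1r21 (chr17:88530124-88588367), a protein of early endosomes, had 0.708, 0.618 and 0.614 against 0.861, 0.936 and 0.987, a log2 change of 0.49 (SE 0.08, limma adjusted p = 0.0243). In all 3 genes every antibiotic pool was above every control pool. Tmem140 (chr6:34863146-34874946), a membrane protein, had 0.178, 0.174 and 0.191 against 0.257, 0.235 and 0.256, a log2 change of 0.38 (SE 0.07, limma adjusted p = 0.0467). Rbm26 (chr14:105106751-105181039) had 0.992, 0.929 and 0.967 against 1.28, 1.18 and 1.19, a log2 change of 0.32 (SE 0.06, limma adjusted p = 0.0467).

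Just outside the threshold stood Dusp7, a phosphatase of MAP kinases, with a log2 change of -0.49 and a limma adjusted p of 0.05001. Rsrp1 (log2 change 0.52, limma adjusted p = 0.0680) and Nrros, which activates TGF-beta in microglia (-0.40, limma adjusted p = 0.0680), followed. Dusp7 and Rsrp1 are named only as the genes nearest the threshold, a choice made after their values were seen.

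**Figure D2:**
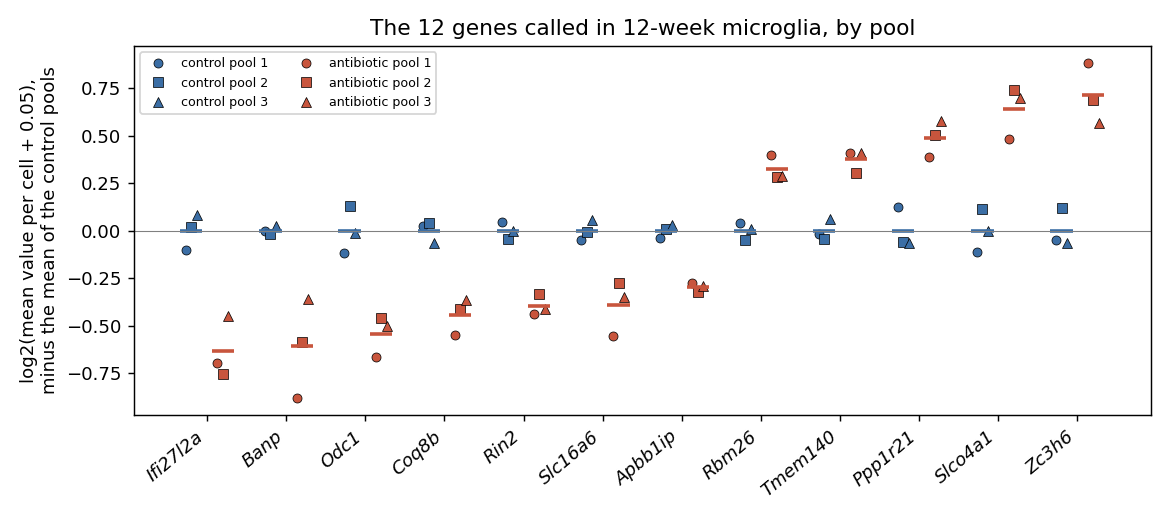
The 12 genes called in 12-week microglia, as log2(mean value per cell + 0.05) minus the mean of the 3 control pools, 1 point per pool and bars at the mean of 3 pools. The 7 lower and 5 higher genes were selected by the test on these pools, and in none of them do the arms overlap.

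The number of calls depended on each pool. Without control pool 1 it was 2, without control pool 2 or 3 and without antibiotic pool 1 it was 0, without antibiotic pool 2 it was 2 and without antibiotic pool 3 it was 10, while no called gene changed its direction. The authors' cluster 0 held 4446 of the 5044 young microglia. Cluster 1, with 517 microglia, had a median of 1423 raw UMIs per cell against 6988 in cluster 0. With cluster 0 alone, a choice made after seeing the data, limma called 73 of 8753 genes, 27 higher and 46 lower, among them all 12. With cells of at least 2000 raw UMIs it called 22 of 8833, again with all 12. In cluster 0 Ifi27l2a had a log2 change of -0.79 (limma adjusted p = 8.723e-06), and the called genes further included Dusp7, Rsrp1, Nrros and 4 endoplasmic reticulum chaperones described next.

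Genes of the unfolded protein response and chaperones of the endoplasmic reticulum, which fold and export secreted and membrane proteins, were lower as a group in the counts. Of 22 listed genes 21 were tested, 20 were below 0 and 1 above, against 57.4% below and 42.6% above among all 8759 genes, and their median log2 change was -0.14 against -0.02 over all genes, running from -0.19 to -0.08 over 18 other settings. The pools did not overlap, with antibiotic lower, for 11 of the 21, against 9.56% of all genes, and 9 had an unadjusted p under 0.05 in that direction, against 6.8%. limma called 0 of them in all microglia.

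Manf, a secreted protein induced by endoplasmic reticulum stress, had 1.72, 1.78 and 1.68 in the control pools and 1.25, 1.40 and 1.502 in the antibiotic pools. The log2 change was -0.31 (SE 0.07, limma adjusted p = 0.0680), and in cluster 0 it was -0.32 (limma adjusted p = 0.0329). Sdf2l1, a cofactor of the chaperone BiP, had 0.752, 0.761 and 0.749 against 0.514, 0.581 and 0.637, a log2 change of -0.36 (SE 0.08, limma adjusted p = 0.0680) and -0.37 in cluster 0 (limma adjusted p = 0.0146). In both genes the control pools were close together and no antibiotic pool reached them. Creld2, a disulfide isomerase-like stress protein, had 0.204, 0.257 and 0.234 against 0.125, 0.167 and 0.174, a log2 change of -0.46 (SE 0.10, limma adjusted p = 0.0861) and -0.44 in cluster 0 (limma adjusted p = 0.0392). Calr, the lectin chaperone calreticulin, had 4.50, 4.53 and 4.28 against 3.16, 3.83 and 3.88, a log2 change of -0.30 (SE 0.07, limma adjusted p = 0.103) and -0.30 in cluster 0 (limma adjusted p = 0.0421). Taking the median over the 21 genes in each pool, the control pools lay at 0.00, 0.01 and 0.02 and the antibiotic pools at -0.26, -0.10 and -0.13 relative to the control mean. Antibiotic pool 1 was the lowest of the 3.

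The promoters of such chaperone genes are known for the endoplasmic reticulum stress element, a CCAAT box joined by a spacer to CCACG. Windows of 250 bases before the gene start, from the RefSeq promoter table of GRCm38.p6, were searched on both strands. The element was found in 7 of the 18 listed genes with a window (38.9%), against 0.113% of all 32851 promoters. Here and in the searches below, the list share counts genes with a match in any of their windows, while the other share counts windows. These searches describe the lists and were not a test of the antibiotic change. The window of Creld2, shown because the gene had the largest change of the list, is chr15:88819396-88819645 (+ strand), with the element, read on the opposite strand, in capitals.

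Creld2: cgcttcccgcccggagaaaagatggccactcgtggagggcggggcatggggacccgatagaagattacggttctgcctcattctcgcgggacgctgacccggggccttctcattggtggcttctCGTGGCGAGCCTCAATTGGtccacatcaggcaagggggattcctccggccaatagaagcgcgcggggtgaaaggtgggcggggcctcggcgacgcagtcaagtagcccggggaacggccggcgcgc

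Glycolysis and hypoxia genes showed a like count. Of 18 tested, 16 were below 0, against 57.4% of all genes, and 2 above, with a median log2 change of -0.15 that ran from -0.19 to -0.05 over 18 other settings. The pools did not overlap in the lower direction for 11, against 9.56% of all genes, and limma called 0. Tpi1, the glycolytic triosephosphate isomerase, had 0.578, 0.638 and 0.601 in the control pools and 0.476, 0.472 and 0.534 in the antibiotic pools, a log2 change of -0.27 (SE 0.07, limma adjusted p = 0.154). P4ha1, a collagen prolyl hydroxylase induced by hypoxia, had 0.780, 0.779 and 0.793 against 0.587, 0.628 and 0.745, a log2 change of -0.25 (SE 0.08, limma adjusted p = 0.234). Slc2a1, the glucose transporter GLUT1, had 0.239, 0.266 and 0.248 against 0.219, 0.173 and 0.235, a log2 change of -0.22 (SE 0.10, limma adjusted p = 0.427). In each of these genes all antibiotic pools were below all control pools, but by little in antibiotic pool 3 for P4ha1 and Slc2a1. The core of the hypoxia response element, ACGTG on either strand, occurred in 11 of the 17 listed genes with a promoter window (64.7%), against 16.6% of all promoters. P4ha1 is shown at chr10:59323046-59323295 (+ strand), where the element lies close to the gene start.

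P4ha1: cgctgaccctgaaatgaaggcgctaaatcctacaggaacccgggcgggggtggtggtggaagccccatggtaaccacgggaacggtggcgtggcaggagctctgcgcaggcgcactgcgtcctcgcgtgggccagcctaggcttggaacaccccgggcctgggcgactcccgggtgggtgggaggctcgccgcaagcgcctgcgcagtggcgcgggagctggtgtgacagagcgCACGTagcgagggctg

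NF-kB subunits and their feedback inhibitors, which carry and then shut off inflammatory signals, had 13 of 16 genes below 0, against 57.4% of all genes, and 3 above. Their median log2 change was -0.16, and ran from -0.23 to -0.05 over the 18 other settings. The pools of 4 did not overlap in the lower direction, against 9.56% of all genes, and limma called 0. Nfkbia, the inhibitor IkB-alpha and a target of NF-kB itself, had 20.6, 19.4 and 22.9 in the control pools and 17.5, 19.1 and 17.1 in the antibiotic pools. Antibiotic pool 2 came near control pool 2, and the log2 change was -0.23 (SE 0.09, limma adjusted p = 0.337). Inflammatory cytokines and chemokines had 14 of 14 below 0, a median of -0.13 that ran from -0.21 to -0.05 over those settings, and 3 without overlap. Of these Il1a, which encodes interleukin-1 alpha, had 3.17, 4.17 and 3.57 against 2.26, 3.06 and 2.64, a log2 change of -0.45 (SE 0.13, limma adjusted p = 0.176). The lowest control pool and the highest antibiotic pool were close.

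The interferon response list had 21 of 23 genes below 0, against 57.4% of all genes, and 5 without overlap, against 9.56%. Its median of -0.11 ran from -0.19 to -0.01 over the 18 other settings, and Ifi27l2a was its only called gene. Xaf1, another interferon-inducible gene, had 0.178, 0.147 and 0.166 against 0.111, 0.129 and 0.113, a log2 change of -0.35 (SE 0.10, limma adjusted p = 0.165). The interferon response element, a pair of GAAA repeats with a spacer, on either strand, was found in 9 of the 17 listed genes with a promoter window (52.9%), against 2.98% of all promoters. Fc gamma receptors, which bind antibody, had 5 of 6 genes below 0 and 4 without overlap. Fcgr4 had the largest of these changes, -0.36 on the log2 scale (SE 0.12, limma adjusted p = 0.268).

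**Figure D3:**
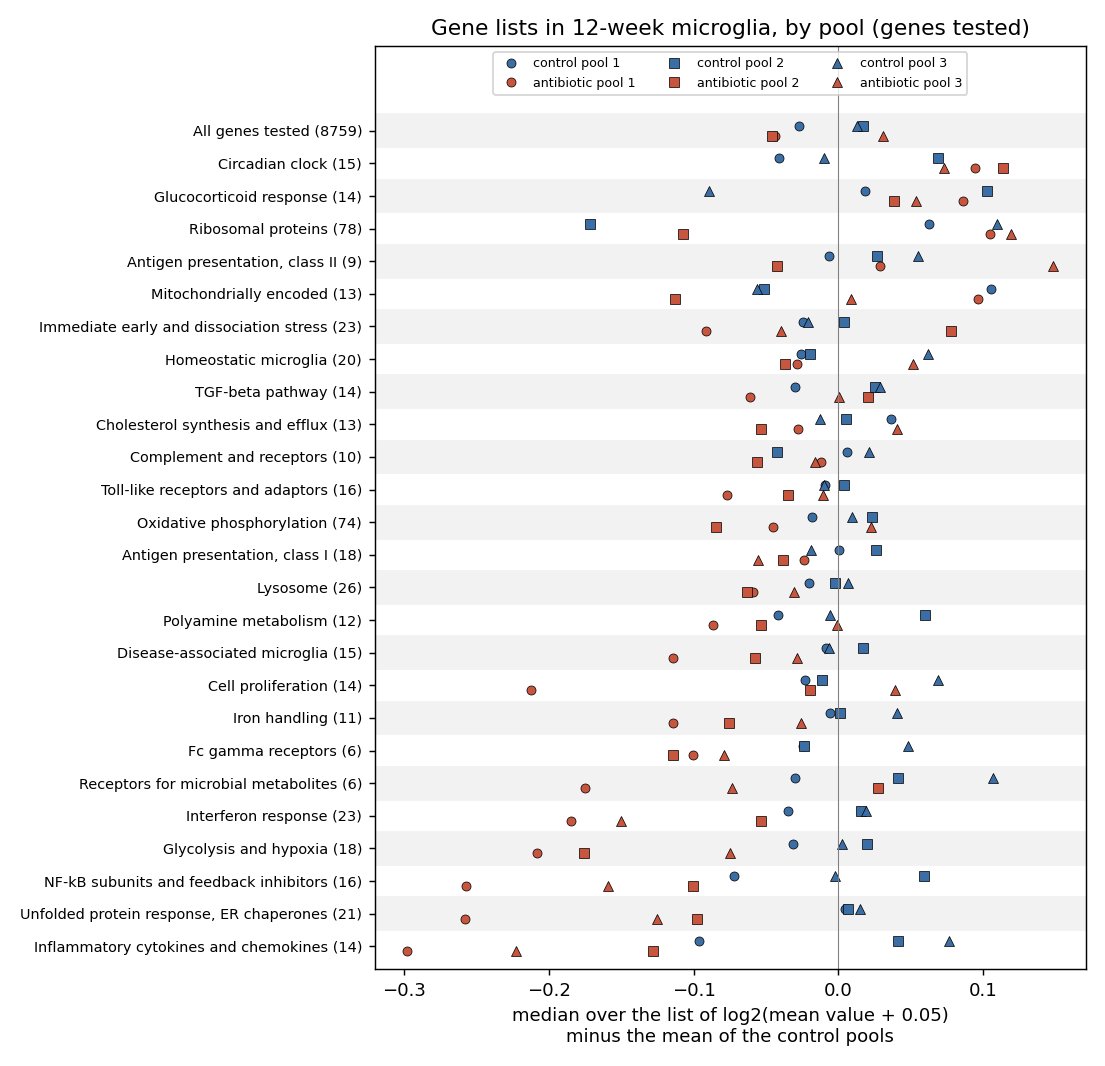
Median over each gene list, and over all genes tested, of log2(mean value + 0.05) minus the mean of the control pools, for each of the 6 pools in 12-week microglia, with the number of genes tested in brackets. The antibiotic pools lie below the control pools for chaperones (-0.26 to -0.10) and glycolysis (-0.21 to -0.07), and overlap them for the homeostatic, ribosomal and mitochondrially encoded lists.

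Genes that mark microglial identity did not move together. Of 20 homeostatic genes 9 were above and 11 below 0, with a median of -0.01 and 0 called. The purinergic receptor gene P2ry13 had 2.48, 2.61 and 2.78 against 2.39, 2.24 and 2.35, a log2 change of -0.17 (SE 0.06, limma adjusted p = 0.282). The TGF-beta receptor gene Tgfbr1 had 4.98, 4.73 and 5.07 against 5.38, 5.38 and 5.46, a log2 change of 0.13 (SE 0.06, limma adjusted p = 0.448). The 2 genes did not overlap between arms but lay on opposite sides. Against 57.4% of all genes below 0 and 9.56% without overlap in that direction, disease-associated microglia genes had 12 of 15 below 0 (median -0.07), lysosomal genes 22 of 26 (median -0.04, 8 without overlap), Toll-like receptors and adaptors 11 of 16 (median -0.03), oxidative phosphorylation genes 60 of 74 (median -0.03, 6 without overlap) and class I presentation genes 15 of 18 (median -0.06). None of these 5 lists held a called gene.

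Ribosomal and glucocorticoid response genes were mostly above 0. Ribosomal protein genes had 72 of 78 above 0, with a median of 0.04, none without overlap and none called. Their pool medians ran from -0.17 to 0.11 in control and from -0.11 to 0.12 in antibiotic pools, so the arms overlapped, and the median log2 change ran from -0.05 to 0.11 over the 18 other settings. Glucocorticoid response genes had 10 of 14 above 0, with a median of 0.06, which ran from -0.01 to 0.15 over those settings. In this list Fkbp5, a cochaperone of the glucocorticoid receptor and a common readout of its activity, had 0.992, 0.436 and 0.738 against 1.40, 1.44 and 1.46. The antibiotic pools were nearly equal and the control pools spread widely, and the log2 change was 1.01 (SE 0.22, limma adjusted p = 0.0787). Pik3ip1, an inhibitor of PI3 kinase, had 0.0661, 0.0721 and 0.0469 against 0.164, 0.123 and 0.111, a log2 change of 0.71 (SE 0.16, limma adjusted p = 0.0787). Both passed in cluster 0, where limma called 73 of 8753 genes, with changes of 0.97 (limma adjusted p = 0.0337) and 0.76 (limma adjusted p = 0.0122). Cdkn1a of the same list, a cell cycle inhibitor, lay the other way with -0.60 (SE 0.20, limma adjusted p = 0.283). Of 15 circadian clock genes 10 were above 0 and 4 of them without overlap, against 6.5% of all genes without overlap in that direction. Per3, a period gene, had a log2 change of 0.39 (SE 0.12, limma adjusted p = 0.247) and Bhlhe41, a repressor, one of -0.37 (SE 0.08, limma adjusted p = 0.0857), and the latter passed in cluster 0 at -0.36 (limma adjusted p = 0.0274).

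Markers of other cells were read within the microglia, and limma called 0 of the choroid plexus and 0 of the neutrophil markers. Of 6 choroid plexus and ependymal markers, all above 0 in some young pool, the summed level was 2.58 to 3.86 in control and 5.004 to 9.80 in antibiotic pools. Single cells carried much of this level for Ttr, the transthyretin gene of the choroid plexus, with values up to 893 in a control and 2720 in an antibiotic pool. The 14 neutrophil markers summed to 2.51 to 6.92 in control and 2.58 to 22.04 in antibiotic pools. The share of microglia with any Ttr was 83.6% to 86.7% in every pool, control and antibiotic alike. Leaving out the highest cell of each gene and pool gave 25 calls, which included all 12. Raw depth lay lower in the antibiotic arm, with median totals of 6847, 6781 and 7193 UMIs per microglial cell in the control pools and 6415, 6411 and 7029 in the antibiotic pools (difference -322, two-sided exact permutation p = 0.3, smallest possible 0.1). With microglia matched on raw UMIs between the arms, 9 genes were called, all 9 of them among the 12. Ifi27l2a (-0.62, limma adjusted p = 0.0609), Banp (-0.61, limma adjusted p = 0.0609) and Coq8b (-0.44, limma adjusted p = 0.0680) then missed the threshold.

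The well of 72-week mice allowed the same contrast in pools that share no cells with the young ones. Both contrasts came from 1 fit of all 12 pools and used the same estimate of each gene's spread. A call at 72 weeks is therefore not independent of a call at 12 weeks. At 72 weeks limma called 283 genes (3.23%). Of the 12 genes, 10 had the same direction at 72 weeks (83.3%) and 6 were called there as well (50%). These 6 were Zc3h6, Slco4a1, Ppp1r21, Rbm26, Banp and Slc16a6. Zc3h6 had a log2 change of 1.16 (SE 0.12, limma adjusted p = 4.194e-05) and Banp one of -1.02 (SE 0.12, limma adjusted p = 0.000104) in aged microglia. Conversely, of the 283 genes called at 72 weeks, 253 had the same sign in young microglia (89.4%). The share of all tested genes with the same sign at both ages was not counted, so these shares have no background beside them. The hashtags of the arms were the same in both wells.

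Ifi27l2a and Rin2 were the exceptions. Ifi27l2a had a log2 change of -0.63 in young and 0.36 (SE 0.12, limma adjusted p = 0.104) in aged microglia, and the difference of the effects, 0.99, had an adjusted p of 0.141 in limma, the lowest of all genes. Rin2 had -0.39 in young and 0.04 in aged microglia, with an adjusted p of the difference of 0.184 in limma. No gene passed the test of the difference between the ages in limma (0 of 8759, with 579 at an unadjusted p under 0.05), so none of the 12 young changes was shown to differ at 72 weeks. The interferon list had a median of -0.11 in young and 0.15 in aged microglia, while the chaperone list had -0.14 and -0.20, with 9 of its 21 genes called lower in aged microglia, against 1.64% of all genes. The glucocorticoid list had 0.06 and 0.48, with 9 of its 14 genes called higher in aged microglia, against 1.59% of all genes.

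**Figure D4:**
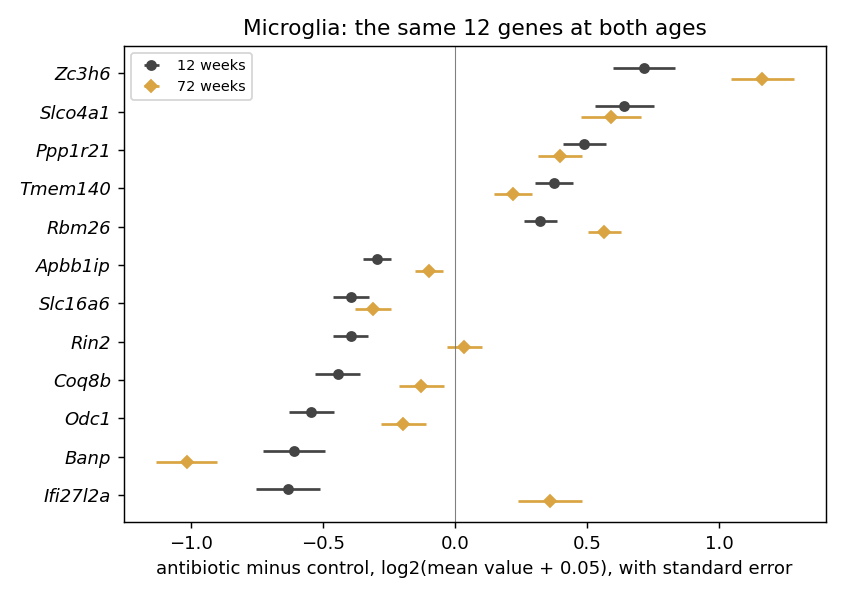
Antibiotic minus control effect in microglia for the 12 genes called at 12 weeks, at 12 weeks (circles) and at 72 weeks (diamonds), on the log2(mean value + 0.05) scale with standard errors from limma. The 12 genes were selected on the 12-week values; 10 keep their sign at 72 weeks, while Ifi27l2a (-0.63 and 0.36) and Rin2 (-0.39 and 0.04) do not.

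The 12 microglial genes were then read in the other young cell types. The direction was that of microglia for 10 of 12 genes in BAM, 9 in the ILC-labelled, CD4+ and Ly6CHigh cells, 8 in Ly6CLow and B cells, 6 in Ly6C+Ly6G+ cells and 5 in CD8+ cells, and limma called none in the types it could test. NK cells were not counted, since their control arm was 2 cells of 1 pool. In BAM, Ppp1r21 had a log2 change of 0.77 (limma adjusted p = 0.734) and Rbm26 one of 0.66 (limma adjusted p = 0.819), and Banp had -0.81 (limma adjusted p = 0.854).

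On the surface of microglia, edgeR called 0 of 34 antibodies (0%), with 3 at an unadjusted p under 0.05 (8.82%). CD64, the high-affinity Fc gamma receptor encoded by Fcgr1, had 6.27, 7.002 and 6.78 tags per cell in the control pools and 6.24, 5.16 and 6.20 in the antibiotic pools, a log2 change of -0.23 (SE 0.09, edgeR adjusted p = 0.456). The fractalkine receptor CX3CR1 had 141, 120 and 139 against 115, 110 and 127 tags per cell, a log2 change of -0.22 (SE 0.09, edgeR adjusted p = 0.456). The arms lay next to each other without overlap for CD64, and overlapped for CX3CR1. DESeq2 also called 0.

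The ILC-labelled cells numbered 155, with 32, 25 and 32 in the control pools and 18, 18 and 30 in the antibiotic pools, so they entered only at the lower minimum of 10 cells per young pool. The aged antibiotic pool 2, with 5 such cells, was left out of their fit. limma called 5 of 8335 genes, all lower (0.06%), with 369 at an unadjusted p under 0.05. They included both NF-kB genes Nfkbia and Nfkb1 and the interleukin-2 receptor gene Il2ra, and the antibody to the same receptor, CD25, was lower on these cells as well.

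Nfkbia (chr12:55489409-55492647) had 6.19, 6.76 and 7.59 in the control pools and 1.28, 4.17 and 2.07 in the antibiotic pools, a log2 change of -1.59 (SE 0.27, limma adjusted p = 0.0292). Nfkb1 (chr3:135584655-135691969), the p105 subunit gene, had 2.00, 1.84 and 1.78 against 0.611, 0.667 and 0.733, a log2 change of -1.42 (SE 0.26, limma adjusted p = 0.0391). In both genes every antibiotic pool was lower, with narrow spread in each arm for Nfkb1. Il2ra (chr2:11642792-11693194), the alpha chain of the interleukin-2 receptor, had 0.469, 0.480 and 0.594 against 0.0556, 0.0556 and 0.167, a log2 change of -2.07 (SE 0.39, limma adjusted p = 0.0393). Gm20186, an uncharacterised transcript, had 1.66, 0.920 and 3.50 against 0.222, 0.5 and 0.2, a log2 change of -2.43 (SE 0.42, limma adjusted p = 0.0292). Rnf128 (chrX:139563340-139673145), a ubiquitin ligase of lymphocytes, had 0.438, 0.160 and 0.281 against 0, 0 and 0.0333, a log2 change of -2.45 (SE 0.45, limma adjusted p = 0.0393). At the levels of Il2ra and Rnf128 a pool mean rests on at most 6 cells above 0.

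The promoters of Nfkbia and Il2ra are printed because both genes were called and are known NF-kB targets. A match to the NF-kB consensus, on either strand, is in capitals, and in Il2ra it consists of 2 overlapping matches. Nfkbia lies at chr12:55492648-55492897 (- strand) and Il2ra at chr2:11642542-11642791 (+ strand). Such a match occurred in 7 of 12 genes of the NF-kB list with a window (58.3%), against 3.9% of all promoters.

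Nfkbia: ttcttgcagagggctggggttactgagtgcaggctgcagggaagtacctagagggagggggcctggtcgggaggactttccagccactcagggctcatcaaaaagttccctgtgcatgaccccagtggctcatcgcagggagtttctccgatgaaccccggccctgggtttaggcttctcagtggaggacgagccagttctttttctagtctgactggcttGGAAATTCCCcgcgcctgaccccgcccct
Il2ra: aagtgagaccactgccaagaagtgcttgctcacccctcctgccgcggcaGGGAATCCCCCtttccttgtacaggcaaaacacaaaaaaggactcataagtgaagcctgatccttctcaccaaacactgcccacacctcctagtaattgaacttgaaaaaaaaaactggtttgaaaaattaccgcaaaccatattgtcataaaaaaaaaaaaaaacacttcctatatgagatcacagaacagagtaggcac

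The protein product of Il2ra was measured with an antibody to CD25, read through its own barcode, given here because CD25 was the antibody that passed the test.

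CD25: accatgagacacagt

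The ILC-labelled cells had 7.12, 4.16 and 10.9 CD25 tags per cell in the control pools and 1.56, 2.17 and 2.37 in the antibiotic pools. No antibiotic pool reached a control pool, and CD25 was the 1 of 34 antibodies called (2.94%), with a log2 change of -2.05 (SE 0.45, edgeR adjusted p = 0.0306). CD117, the receptor c-Kit, named after its values were seen, had 9.31, 9.44 and 17.6 against 4.39, 4.78 and 5.77 tags per cell, a log2 change of -1.50 (SE 0.43, edgeR adjusted p = 0.0945). In all 6 antibodies had an unadjusted p under 0.05 (17.6%).

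**Figure D5:**
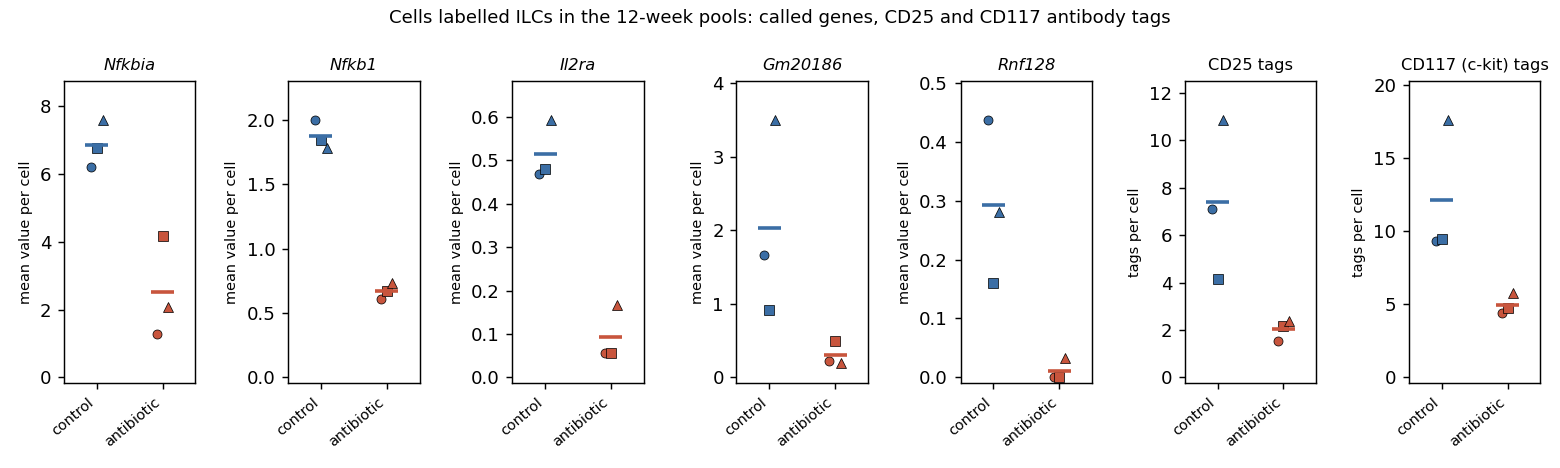
Mean corrected value per cell of the 5 called genes, and CD25 and CD117 antibody tags per cell, in the ILC-labelled cells of the 6 young pools (circles, squares and triangles are pools 1, 2 and 3; bars are means). All 3 antibiotic pools lie below all 3 control pools in each panel.

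Just outside the threshold were Areg, which encodes amphiregulin, with 0.125, 1.16 and 0.5 against 0.0556, 0 and 0 (log2 change -2.93, limma adjusted p = 0.0502), and Gadd45b, Dusp1, Csf2 and Hilpda (limma adjusted p = 0.0583 for each). Areg, Gadd45b, Csf2 and Hilpda were chosen after their values were seen. The Areg means rested on 1, 2 and 3 cells above 0 in control pools 1, 2 and 3, with 1 cell at 28 in control pool 2. Without the highest cell of each pool these means were 0, 0.0417 and 0.194. Without the authors' cluster 9, described below, the Areg log2 change was -1.62. Immediate early genes, which respond within minutes to receptor signals and to tissue dissociation, had 20 of 22 below 0 in these cells, against 45.3% of all genes, with a median of -0.54 against 0.05 for all genes, and 8 without overlap, against 4.26% of all genes. Dusp1 had 5.34, 4.36 and 5.72 against 2.28, 2.94 and 2.90, a log2 change of -0.91 (SE 0.19, limma adjusted p = 0.0583). The NF-kB list had 11 of 16 below 0, 4 without overlap and 2 called. Proliferation genes had 19 of 20 below 0, with a median of -0.59, 2 without overlap and 0 called. With the mean over cells of log2(value + 1), a different scale, that median was -0.03, against 0.01 for all genes. The pool medians were 0.43, -0.34 and 0.05 in control and -0.16, -0.83 and -0.49 in antibiotic pools, so the arms overlapped.

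The makeup of the ILC-labelled cells differed between the arms. The authors' cluster 9 held 3, 1 and 6 of them in the control pools and 0, 0 and 0 in the antibiotic pools. Without cluster 9, a choice made after seeing the data like that of cluster 7 below, limma called 0 genes, in a fit that also left out 3 aged pools with too few cells, and edgeR called 0 antibodies. Il2ra then had a log2 change of -0.13 (limma adjusted p = 0.985) and Gm20186 one of -0.34 (limma adjusted p = 0.982). Nfkb1 had -0.48 (SE 0.34, limma adjusted p = 0.982) and Nfkbia -1.12 (SE 0.30, limma adjusted p = 0.982), both smaller than with all cells and neither passing. Cluster 7, with 112 of the 155 cells, gave 3 called genes in a fit of 7 pools. There Nfkbia had 3.6, 5.47 and 4.14 against 1.13, 2.08 and 2.00, a log2 change of -1.34 (SE 0.24, limma adjusted p = 0.00262). The transcription factor gene Klf2 had -1.06 (limma adjusted p = 0.0208) and the perforin gene Prf1 -1.03 (limma adjusted p = 0.0245), while Nfkb1 had -0.92 (limma adjusted p = 0.953) and Il2ra 0.05 (limma adjusted p = 0.999). Of the immediate early genes, Dusp1 had -0.61 (limma adjusted p = 0.953) and Fos 0.19 (limma adjusted p = 0.972) in cluster 7. The immediate early list was not counted as a whole without cluster 9 or within cluster 7. Klf2 and Fos were chosen after their values were seen. Leaving out 1 young pool left 0 to 5 calls, with 1 without control pool 1 or 2, and 0 without control pool 3 or antibiotic pool 1. CD25 was called without control pool 2, and not without any other single pool. Depth was not lower in the antibiotic arm, with medians of 5707, 6143 and 5006 UMIs in control and 7710, 6064 and 5712 in antibiotic pools.

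In BAM, limma called 2 of 8942 genes, both higher (0.0224%), with 512 at an unadjusted p under 0.05, and both are known from fibroblasts and border tissue. Dcn, which encodes the matrix protein decorin, had 0, 0.0588 and 0.0175 in the control pools and 4.94, 4.03 and 0.5 in the antibiotic pools, a log2 change of 4.97 (SE 0.74, limma adjusted p = 0.00587). These means rested on 1 cell in each antibiotic pool, with values of 176, 132 and 29, while every other BAM cell had at most 1. Ptgds, a prostaglandin D synthase, had 0.0513, 0 and 0.228 against 0.667, 1.06 and 0.414, a log2 change of 2.68 (SE 0.46, limma adjusted p = 0.0219). Its highest cells had 18, 22 and 6 in the antibiotic pools and at most 5 in control. Without the highest cell of each gene and pool limma called 0 genes in BAM. Lum, another matrix gene, was at 0 in all control pools and likewise came from 1 cell in each antibiotic pool. Without control pool 1, or without antibiotic pool 1 or 2, limma called 0 genes.

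Ly6CLow cells, with 33 to 58 per pool, gave 0 calls of 8613 genes in limma (0%), with 365 at an unadjusted p under 0.05. Of the genes nearest to passing, Sparc, a microglial gene in this tissue, had 0.914, 1.32 and 1.28 against 0.628, 0.545 and 0.653, a log2 change of -0.88 (SE 0.21). Ccrl2, a chemokine receptor-like gene, had 1.62, 2.17 and 1.36 against 2.65, 2.94 and 3.49, a log2 change of 0.82 (SE 0.21). The limma adjusted p was 1 for both. Ribosomal protein genes had 70 of 78 above 0 and 31 without overlap, against 6.22% of all genes, with a median of 0.08, and class II presentation genes had 11 of 11 above 0, against 52.6% of all genes, with a median of 0.26. Homeostatic microglia genes, which mark another cell type here, had 16 of 19 below 0, against 47.4% of all genes, with a median of -0.23 against 0.02 for all genes. The part of these markers in the Sparc value was not tested. edgeR called 0 of 34 antibodies (0%) on Ly6CLow cells, with 1 at an unadjusted p under 0.05, and DESeq2 called 0.

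B cells, with 13 to 126 per pool, gave 0 calls of 8383 genes in limma (0%), where 453 had an unadjusted p under 0.05 and the adjusted p started at 0.859. Rnf216, a ubiquitin ligase gene, had 0.469, 0.522 and 0.542 against 0.0769, 0.0769 and 0.333, a log2 change of -1.61 (SE 0.41, limma adjusted p = 0.859), and the arms did not overlap. The 12 cytotoxic effector genes, markers of other lymphocytes, were all above 0, against 55.8% of all genes, with a median of 1.195. With the mean over cells of log2(value + 1), a different scale, the median was 0.09, against 0.01 for all genes. edgeR called 0 antibodies (0%), with 1 at an unadjusted p under 0.05, and on BAM it called 0 with 0 at that level. The co-stimulatory molecule CD86 had 19.3, 9.78 and 14.4 tags per B cell in the control pools and 33.8, 41.9 and 26.3 in the antibiotic pools. All antibiotic pools were higher, with a log2 change of 1.08 (SE 0.51, edgeR adjusted p = 0.641). Homeostatic microglia genes, markers of another cell type here, had 17 of 20 above 0 and 3 below in the B cells. Their median was 0.62, and 55.8% of all genes were above 0. The authors' cluster 3, which held 170 of the 274 young Ly6CLow cells, held 2 control and 11 antibiotic B cells. The part of other cells in the CD86 value was not tested. The typical standard error of a log2 change was 0.09 in microglia, 0.35 in Ly6CLow cells, 0.37 in BAM, 0.50 in B cells and 0.51 in the ILC-labelled cells, so changes of the size called in microglia were not detectable in the rarer types. CD4+, CD8+, Ly6CHigh, Ly6C+Ly6G+ and NK cells had fewer than 10 cells in at least 1 young pool and were not tested for genes.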

How the data were processed

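RNA and antibody tags were measured in single brain immune cells of 12 pools of mice. Per the submitters' processing notes, Cell Ranger 3.0.2, Seurat 3.0.1 and the mm10 genome build were used. The deposited RNA table holds a score, whole numbers corrected for depth by the authors with SCTransform, not raw counts, so the correction could shift levels between pools. The deposited antibody table holds raw tag counts. Cell types, clusters, pools and raw totals came from the deposited metadata, of which 32 columns were not used. All 13052 cells were called singlets there, and no further doublet filter was applied.

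Values were averaged per pool and type and tested with limma 3.58.1 on log2(mean + 0.05), keeping genes whose mean reached 0.05, in 1 fit of all 12 pools. Antibody tags and cell numbers were tested with edgeR 4.0.16 (quasi-likelihood), with DESeq2 1.42.0 as an alternative, in R 4.3.3. The SE beside an edgeR change was calculated back from that change and the F statistic of its test. It is not a standard error estimated by the fit, as limma's is. The threshold was a Benjamini-Hochberg adjusted p of 0.05. Types needed 20 cells in each young pool, or 10 in the alternative that added BAM, B cells and ILCs. The p-values measure the spread between pools, each of several mice. Genes named were those called, the 3 of each list with the largest change without overlap, and the smallest p where none passed. The gene lists (26 programs, 11 of other cells) and the members were chosen with earlier results of these data known. The procedure was run on simulated microglial gene values and antibody tags. The planted gene changes were larger than those called in 12-week microglia, and the rarer cell types were not simulated.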

Additional observations from a re-analysis of the deposited data

Results flagged for a closer look

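In the ILC-labelled cells, 4 genes passed limma's test of the difference between the antibiotic effect at 72 weeks and at 12 weeks (Benjamini-Hochberg adjusted p under 0.05). For Nfkb1 the aged minus young effect was 2.0493 on the log2 scale (adjusted p = 0.0481). The authors' cluster 9 held 0 of the young antibiotic ILC-labelled cells, against 3 of 32, 1 of 25 and 6 of 32 in the young control pools. It held 10 of 16, 3 of 5 and 12 of 25 in the aged antibiotic pools. In the aged control pools it held 6 of 11, 20 of 87 and 20 of 31. The aged antibiotic pool of 5 cells was left out of the fit. The part of cluster makeup in the Nfkb1 difference was not tested. Without cluster 9 the young Nfkb1 change was -0.48 in place of -1.42. For Stmn1, which binds tubulin in dividing cells, it was 5.2706 (adjusted p = 0.0260), with single cells at 31 and 26 in young control pools 1 and 3, and at 31 and 24 in aged antibiotic pool 3. For H2-Aa, a class II presentation gene, it was -6.766 (adjusted p = 0.0257), and for Cd74, its invariant chain, -6.8101 (adjusted p = 0.00613). Single cells reached 402 for Cd74 and 143 for H2-Aa in aged control pools, and 136 and 82 in young antibiotic pool 1. The young and aged pools were in separate wells, so age and well cannot be told apart.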

How the results depend on the processing

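No paired analysis was possible because the pools of the arms carry different hashtags and no label matches a control pool with an antibiotic pool. Of the 12 genes called in microglia, none changed direction under any alternative run. The mean of log values over cells used log2(value + 1) per cell, so its changes are not on the scale of the others. It was among the 18 other settings over which the microglial list medians ran. limma called 7 with a pseudocount of 0.5, 0 without a filter, 7 with a filter at 0.2, 58 with the mean of log values over cells, 25 with the 6 young pools only, 20 with array weights and 22 with cells of at least 2000 raw UMIs. After seeing the data, 25 were called without the highest cell of each gene and pool and 73 in cluster 0. Leaving out 1 young pool gave 0 to 10. In BAM the count of 2 became 1 with a pseudocount of 0.5, no filter, the young pools only, array weights or at least 2000 UMIs, and 0 with mean log values or without the highest cells, with 0 to 3 when 1 pool was left out. In the ILC-labelled cells the count of 5 became 0 with a pseudocount of 0.5, no filter, a filter at 0.2, mean log values, at least 2000 UMIs or without cluster 9, 3 with the young pools only, without the highest cells or with cluster 7 only, 8 after rescaling and 10 with array weights, and 0 to 5 when 1 pool was left out. Il2ra turned to 0.0451 in cluster 7. The lower minimum of 10 cells raised the calls outside microglia from 0 to 7. The test between the ages gave 4 calls with mean log values, 2 with array weights, 1 with at least 2000 UMIs, 1 without the highest cells and 2 in cluster 0, and 0 to 1 when 1 young pool was left out. The 1 antibody call on ILC-labelled cells became 0 without normalization factors, with the centred log ratio, the young pools only, antibodies of at least 1 tag per cell or without cluster 9, and was 0 to 1 when 1 pool was left out. On Ly6CLow cells the antibody count was 0 to 1, with 1 without control pool 1. The causes of these changes were not tested. With 3 pools a side, an exact permutation test cannot go below 0.1.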
